A study of Mus musculus with 10 samples.

Results

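The genes described here are antiviral interferon-stimulated genes of the mouse, measured as RNA in a breast cancer cell line grown in T cell supernatants. Of 39 names on the list, 37 had a row in the expression table, and 32 reached 1 FPKM in at least 2 of the 10 libraries. These 32 members were followed among 17171 genes in the table. FPKM scales fragment counts by transcript length and by sequencing depth, so levels can be compared roughly between genes and between libraries. Its sum still differed between libraries, and other scalings were run as alternatives.

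Interferons bind receptors that act through JAK kinases and STAT transcription factors. Type I and type III interferons act mainly through the interferon-stimulated response element (ISRE), while interferon-gamma (IFN-γ) acts mainly through the gamma-activated site (GAS) and induces IRF1, which itself binds ISRE-like sequences. The proteins made in response detect foreign RNA, block its translation, degrade it, deplete nucleotides or hold virus particles at membranes. In epithelial and tumor cells many of these genes are also expressed without infection.

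PyMt cells, a line from mammary tumors of MMTV-PyMt mice, which express the polyoma middle T antigen in mammary epithelium, were cultured in supernatant of sorted and stimulated CD4+ T cells. The study kept all its mice on a C57BL/6 background. Test supernatant is described as from T cells of Tslp-PyMttg mice, in which a keratin promoter drives the cytokine TSLP, and makes up the sets tagged Test1, Test2 and Test3. The study's methods name Tslptg mice as its source, while its figure legends for these RNA data name TSLP-activated wild-type T cells. Control supernatant is described as derived from Tslp-PyMttg TslprKO mice, which lack the TSLP receptor, and from PyMttg mice. The study's text names TslprKO T cells alone as the source of control supernatant for these RNA data, and the culture protocol also names medium without supernatant. Control samples carry the tags Control and Blank and are all titled as control supernatant, and no source used here says what sets the tags apart. A comparison of Control with Blank may therefore be of a pair of supernatants or of supernatant with none. All sets are of 2 libraries (6 test and 4 control in all), all are of 1 cell line, and T cells were stimulated with anti-CD3/CD28 antibodies and TSLP. Whether the libraries of a set are separate cultures is not stated, and each p-value here reflects only how these libraries scatter, which can be technical. Summed FPKM was 414783 to 487591 per library, and 14074 to 14964 genes were above 0. FPKM keeps no read total, so the depth behind a value is not given by the table.

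The check of the cell label showed epithelial RNA in all libraries. Summed FPKM of the 6 epithelial markers with a row, almost all of it Krt8 and Krt18, was 2229 and 2287 in Test1, 2386 and 2885 in Test2, 1123 and 1444 in Test3, 2759 and 2789 in Control and 1299 and 1387 in Blank. Of 9 T cell markers 3 had a row, with sums of 2.62 and 5.72, 2.38 and 3.15, 5.45 and 17.0, 2.38 and 5.20 and 1.24 and 2.60 FPKM in the same order of sets. Nearly all of the T cell sum was Cd3d (16.7 FPKM in Test3-1). Macrophage markers summed to 4.87 to 10.5 FPKM, mostly Cd68, while Lyz2 was at 0 to 0.88 FPKM, and B cell, fibroblast and endothelial markers summed to at most 1.70 FPKM in any library. The epithelial sum was lower in Blank than in Control and lower in Test3 than in Test1 and Test2, without overlap. The T cell sum overlapped between Control and Blank and between Test3 and Test1, and was higher in Test3 than in Test2 without overlap. The part of either in the results below was not tested. In bulk RNA fewer cells of a type and less RNA per cell cannot be told apart.

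Upstream sequence is shown first, because interferon acts on these genes through it. RefSeq (GRCm38.p6) gave a window of 250 bases before to 50 bases after the start for 25 of the 32 members, and none for Usp18, Oas1b, Dhx58, Parp9, Parp14, Tor3a and Rtp4. The ISRE core GAAANNGAAA, or TTTCNNTTTC on the other strand, was in a window of 13 of these 25 members (52%), against 3.44% of 32851 windows of all genes and 3.65% of 8905 tested genes with a window. The GAS core TTCNNNGAA, which reads alike on both strands, was in 8 members (32%), against 8.30% of windows and 8.32% of tested genes. Both motifs can overlap, since each ends or starts in GAA. A match is a description of the letters, not a binding site. The members were listed as interferon-stimulated genes, so a higher share of these motifs describes the list and is not a result of these data. In Ddx58, Eif2ak2, Ifih1, Ifitm3 and Trim21 no ISRE core lay wholly within the 250 bases before the start.

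The stretches below were chosen to show the motifs in members on which results turn: Isg15, the ubiquitin-like modifier; Rsad2 and Ifit1, which stand out in Test3; and Samhd1 and Bst2, called between Control and Blank and chosen after their values were seen. Capitals mark an ISRE core in Isg15, Rsad2 and Ifit1, a GAS core in Samhd1, and a GAS core running into ISRE cores in Bst2. All read 5′ to 3′ on the gene's strand, and stretches inside annotated exons or other genes were left out, except for Ifit1, of which the 29 bases that span both cores are shown although they lie within the annotated spans of Ifit1bl1 and Ifit1bl2.
Isg15, chr4:156200819-156201068, minus strand: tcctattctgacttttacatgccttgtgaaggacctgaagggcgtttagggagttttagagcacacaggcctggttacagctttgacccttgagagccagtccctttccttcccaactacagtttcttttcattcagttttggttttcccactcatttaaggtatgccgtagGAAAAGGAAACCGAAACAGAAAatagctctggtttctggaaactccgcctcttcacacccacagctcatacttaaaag
Rsad2, chr12:26456453-26456702, minus strand: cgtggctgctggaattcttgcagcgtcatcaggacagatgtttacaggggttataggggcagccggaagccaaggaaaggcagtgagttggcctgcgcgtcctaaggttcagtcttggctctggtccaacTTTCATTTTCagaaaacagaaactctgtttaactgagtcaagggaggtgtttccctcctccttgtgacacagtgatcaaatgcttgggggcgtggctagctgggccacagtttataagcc
Ifit1, chr19:34640785-34640813, plus strand: TTTCACTTTCcagtctcagTTTCAGTTTC
Samhd1, chr2:157135266-157135346, minus strand: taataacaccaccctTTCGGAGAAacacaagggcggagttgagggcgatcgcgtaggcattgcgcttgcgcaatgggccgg
Bst2, chr8:71537473-71537722, minus strand: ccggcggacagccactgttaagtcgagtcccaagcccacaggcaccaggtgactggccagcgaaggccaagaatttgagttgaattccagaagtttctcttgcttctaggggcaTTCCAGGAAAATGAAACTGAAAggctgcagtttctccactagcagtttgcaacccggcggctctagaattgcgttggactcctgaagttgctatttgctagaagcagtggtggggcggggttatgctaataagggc

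Isg15 has 3 overlapping ISRE cores, the nearest starting 66 bases before its start site, Ifit1 has 2 (nearest at 85 bases) and Rsad2 has 1 (at 120 bases). Of members with a window, 7 of the 16 called higher in Control than in Blank and 6 of the 9 others had an ISRE core. For the GAS core these counts were 7 of 16 (Oas1a, Eif2ak2, Adar, Bst2, Ifi35, Ifitm3 and Samhd1) and 1 of 9 (Ifit2). The GAS cores of Adar, Ifi35 and Ifitm3 did not lie wholly within the 250 bases before the start. Adar and Ifit2 had more than 1 window. All members without a window were called higher in Control than in Blank, so only the called side is incomplete. A link between motif and call was not tested.

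Blank had the lowest mean in 29 of the 32 members, and Test3 had the highest in 21, Test2 in 8, Control in 3 and Test1 or Blank in none. These counts were not made over all genes, so they do not set the members apart. Both Blank libraries were below all the other 8 in 28 members (87.5%, against 10.8% of the 11169 genes tested), the exceptions being Ifit1, Ifit2, Oasl1 and Ddx58. Tests below were made with limma on log2(FPKM + 1), a scale that understates the change of low genes, over all 11169 genes that reached 1 FPKM in at least 4 libraries. Called means an adjusted p under 0.05, and differences are of log2(FPKM + 1) with their standard error (SE). All 32 members passed this filter, 27 of them at 1 FPKM or more in all 10 libraries.

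**Figure D1:**
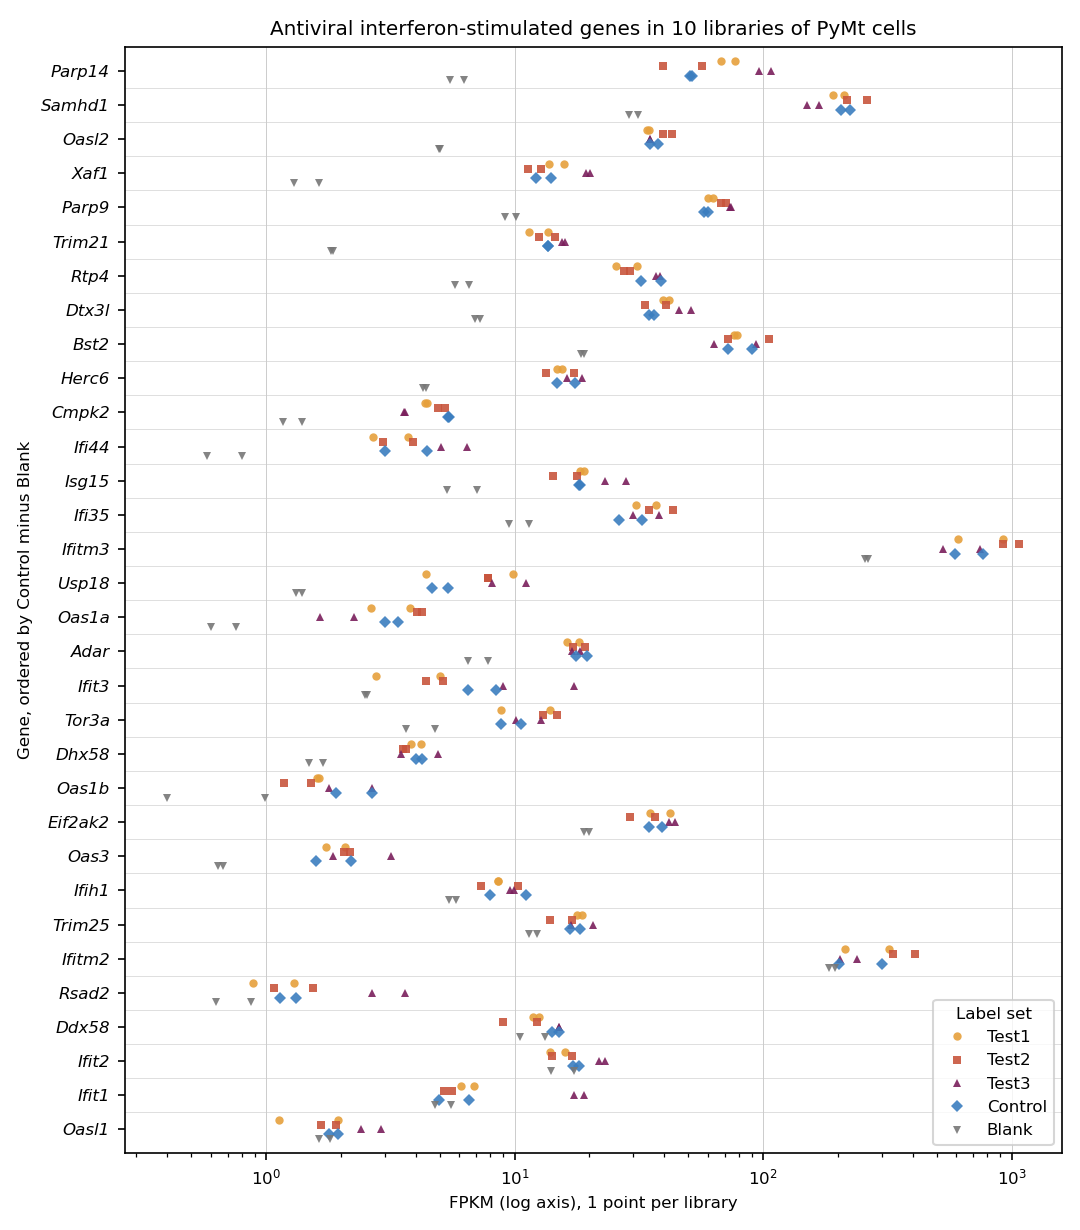
FPKM (log axis) of the 32 members, 1 point per library, with the 5 label sets in different colours and shapes and genes ordered by the difference between Control and Blank. Both Blank libraries lie below the other 8 in 28 members, by far in Parp14 and Samhd1 at the top, and among them in Oasl1 and Ifit1 at the bottom.

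Most members were higher in Control than in Blank, both titled as control supernatant. Of the 32, 23 (71.9%) were called higher, against 4.55% of all genes tested, and 0 lower, against 1.39%. An unadjusted p under 0.05 in limma was found in 26 members, against 2078 of the 11169 genes tested. The median difference was 1.34 over the members and -0.03 over all genes. The 23 called included 20 of the 27 members at 1 FPKM or more in all libraries and 3 of the 5 that were under 1 FPKM in both Blank libraries. The members had been chosen with an interferon difference between these sets known, so the count describes them and is not independent evidence.

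Parp14, Parp9 and Dtx3l, which lie close together on chromosome 16, were all called higher in Control than in Blank. In GRCm38.p6 Parp14 spans chr16:35831892-35871518, Dtx3l chr16:35926515-35939027 and Parp9 chr16:35938470-35972621. Parp14, an ADP-ribosyltransferase with macrodomains, had 77.2 and 67.5 FPKM in Test1, 39.4 and 56.9 in Test2 and 107 and 96.3 in Test3, against 50.6 and 52.0 in Control and 5.49 and 6.27 in Blank. Control was thus 8.73-fold above Blank in mean FPKM with no overlap, and the difference of 2.93 (SE 0.17, adjusted p = 1.7e-06) was the largest of the members. Parp9, an ADP-ribosyltransferase that works with the ubiquitin ligase DTX3L, had 63.0 and 60.1 FPKM in Test1, 67.5 and 70.9 in Test2 and 74.2 and 73.5 in Test3, against 57.7 and 60.1 in Control and 9.14 and 10.1 in Blank. Dtx3l averaged 40.7, 37.0 and 48.6 FPKM in Test1, Test2 and Test3, against 35.6 in Control and 7.12 in Blank. Parp9 and Dtx3l differed between Control and Blank by 2.50 (SE 0.11) and 2.17 (SE 0.13). Their annotations overlap by 558 bases, and without a stated strand setting reads there cannot be assigned to one gene.

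Of 3 enzymes that act on nucleotides, Samhd1 and Cmpk2 were called between Control and Blank and Rsad2 was not. Samhd1, which hydrolyses deoxynucleotides, had 211 and 191 FPKM in Test1, 218 and 261 in Test2 and 168 and 151 in Test3, against 206 and 225 in Control and 31.3 and 29.0 in Blank. No library outside Blank was under 151 FPKM and neither Blank library was over 31.3 FPKM, and Control minus Blank was 2.80 (SE 0.13, adjusted p = 3.7e-07). Cmpk2, a mitochondrial nucleotide kinase encoded beside Rsad2, had 4.45 and 4.36 FPKM in Test1, 4.93 and 5.24 in Test2 and 3.61 and 3.59 in Test3, against 5.40 and 5.44 in Control and 1.17 and 1.40 in Blank. Control minus Blank was 1.49 (SE 0.14) and was called. Rsad2 encodes viperin, which makes a chain-terminating nucleotide, and had 0.89 and 1.30 FPKM in Test1, 1.08 and 1.54 in Test2 and 2.66 and 3.63 in Test3, against 1.32 and 1.14 in Control and 0.63 and 0.87 in Blank. Control lay above Blank without overlap, but the difference of 0.35 (SE 0.20, adjusted p = 0.40) was not called.

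The oligoadenylate synthetases make the messenger that activates RNase L, and 3 of the 5 members of this family were called between Control and Blank. Oasl2 had 34.0 and 34.6 FPKM in Test1, 39.5 and 42.9 in Test2 and 35.2 and 35.2 in Test3, against 37.9 and 35.1 in Control and 4.97 and 4.99 in Blank. Oas1a had 2.64 and 3.80 FPKM in Test1, 4.26 and 4.06 in Test2 and 1.65 and 2.26 in Test3, against 3.01 and 3.41 in Control and 0.60 and 0.76 in Blank. Both were called between Control and Blank, with differences of 2.65 (SE 0.11) and 1.33 (SE 0.19). Oasl1, a family member without synthetase activity that restrains translation of Irf7 mRNA in the mouse, had 1.13 and 1.95 FPKM in Test1, 1.91 and 1.67 in Test2 and 2.41 and 2.89 in Test3, against 1.94 and 1.79 in Control and 1.63 and 1.81 in Blank. Its Control and Blank libraries overlapped and differed by 0.08 (95% interval -0.35 to 0.51), the smallest difference of the members. Oas1b, a flavivirus resistance gene of the mouse, had 1.64 and 1.61 FPKM in Test1, 1.51 and 1.18 in Test2 and 1.80 and 2.68 in Test3, against 2.68 and 1.92 in Control and 0.99 and 0.40 in Blank, a called difference of 0.97 (SE 0.23). Oas3 averaged 1.91, 2.11 and 2.52 FPKM in Test1, Test2 and Test3, against 1.89 in Control and 0.66 in Blank, and its difference of 0.80 (SE 0.21, adjusted p = 0.057) was not called. The genes of this family are similar in sequence and clustered on chromosome 5, so reads may have been split between them, as may those of the Ifit genes on chromosome 19 and the Ifitm genes on chromosome 7.

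Among sensors of foreign RNA and their regulators, Dhx58 was called between Control and Blank and Ddx58 and Ifih1 were not. Ddx58, which encodes RIG-I, had 11.9 and 12.6 FPKM in Test1, 8.99 and 12.3 in Test2 and 15.1 and 15.1 in Test3, against 14.2 and 15.1 in Control and 13.3 and 10.5 in Blank. Ifih1, which encodes MDA5, had 8.55 and 8.59 FPKM in Test1, 7.35 and 10.3 in Test2 and 9.61 and 9.91 in Test3, against 7.99 and 11.1 in Control and 5.83 and 5.47 in Blank. Neither was called between Control and Blank, at 0.29 (SE 0.16) and 0.65 (SE 0.18, adjusted p = 0.073). Dhx58, which encodes their regulator LGP2, was called at 0.98 (SE 0.17), averaging 4.02, 3.61 and 4.22 FPKM in Test1, Test2 and Test3, against 4.12 in Control and 1.60 in Blank.

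Eif2ak2 and Adar, whose proteins also act on double-stranded RNA, were both called. Eif2ak2, the kinase PKR that stops translation, had 42.2 and 35.2 FPKM in Test1, 29.2 and 36.8 in Test2 and 44.3 and 41.8 in Test3, against 34.8 and 39.0 in Control and 20.0 and 18.9 in Blank. Adar, which edits adenosine to inosine, had 16.2 and 18.1 FPKM in Test1, 17.3 and 19.2 in Test2 and 17.0 and 18.3 in Test3, against 19.5 and 17.6 in Control and 7.85 and 6.50 in Blank. Control exceeded Blank by 0.89 (SE 0.15) for Eif2ak2 and 1.26 (SE 0.14) for Adar, and the 8 other libraries of Adar lay within 16.2 to 19.5 FPKM.

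The ISG15 system attaches and removes a ubiquitin-like protein. Isg15 itself had 18.3 and 19.0 FPKM in Test1, 17.9 and 14.3 in Test2 and 23.1 and 28.1 in Test3, against 18.4 and 18.2 in Control and 5.34 and 7.06 in Blank. Usp18, which removes ISG15 and dampens type I interferon receptor signaling, had 4.41 and 9.90 FPKM in Test1, 7.85 and 7.83 in Test2 and 8.14 and 11.1 in Test3, against 5.38 and 4.66 in Control and 1.40 and 1.32 in Blank. Both were called between Control and Blank, at 1.43 (SE 0.16) and 1.35 (SE 0.28). Herc6, the main ISG15 ligase of the mouse, was called at 1.68 (SE 0.15), averaging 15.2, 15.4 and 17.4 FPKM in Test1, Test2 and Test3, against 16.2 in Control and 4.36 in Blank. Trim25, a ubiquitin ligase that acts on RIG-I, had 17.8 and 18.7 FPKM in Test1, 13.9 and 17.0 in Test2 and 20.6 and 16.9 in Test3, against 18.3 and 16.8 in Control and 11.4 and 12.3 in Blank. Its difference of 0.53 (SE 0.14, adjusted p = 0.065) was not called, although Control lay above Blank in both libraries.

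IFIT proteins bind foreign RNA and hinder its translation, and of the 3 genes Ifit3 was called between Control and Blank. In GRCm38.p6 Ifit2 spans chr19:34550550-34576534, Ifit3 chr19:34583119-34588982 and Ifit1 chr19:34640889-34650009. Ifit1 had 6.10 and 6.85 FPKM in Test1, 5.22 and 5.59 in Test2 and 17.4 and 19.0 in Test3, against 4.98 and 6.58 in Control and 4.78 and 5.57 in Blank. Control and Blank overlapped and differed by 0.13 (95% interval -0.22 to 0.48). Ifit2 had 16.0 and 13.9 FPKM in Test1, 14.1 and 17.0 in Test2 and 21.8 and 23.1 in Test3, against 17.1 and 18.2 in Control and 14.0 and 17.4 in Blank. Its Control and Blank libraries overlapped too, with a difference of 0.17 (95% interval -0.16 to 0.50). Ifit3 had 2.78 and 4.99 FPKM in Test1, 4.42 and 5.13 in Test2 and 8.96 and 17.4 in Test3, against 6.48 and 8.44 in Control and 2.55 and 2.49 in Blank, and its Control to Blank difference of 1.26 (SE 0.29, adjusted p = 0.031) was called.

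Of proteins that act at membranes, Ifitm3 had the highest mean FPKM of all members in each set. Ifitm3, which blocks virus entry from endosomes, had 611 and 922 FPKM in Test1, 1075 and 923 in Test2 and 531 and 744 in Test3, against 764 and 590 in Control and 256 and 264 in Blank, and was called between Control and Blank at 1.37 (SE 0.23). Ifitm2 had 214 and 322 FPKM in Test1, 410 and 334 in Test2 and 205 and 239 in Test3, against 302 and 203 in Control and 194 and 184 in Blank, with a difference of 0.39 (95% interval -0.12 to 0.90) that was not called. Bst2, or tetherin, which holds budding virus at the cell surface, had 78.6 and 76.5 FPKM in Test1, 106 and 72.0 in Test2 and 93.6 and 63.2 in Test3, against 90.2 and 72.4 in Control and 18.6 and 19.1 in Blank. It was called at 2.04 (SE 0.21), and its 2 libraries within Test2 and within Test3 lay further apart than the means of any 2 sets other than Blank.

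The remaining members were all called between Control and Blank. Xaf1, which antagonises the apoptosis inhibitor XIAP, had 13.7 and 15.8 FPKM in Test1, 12.8 and 11.3 in Test2 and 19.4 and 20.2 in Test3, against 12.2 and 14.0 in Control and 1.29 and 1.63 in Blank, an 8.97-fold ratio of the Control to the Blank mean (difference 2.52, SE 0.14). Trim21, a ubiquitin ligase that binds antibody in the cytosol, and Rtp4, a chaperone of G protein-coupled receptors, differed by 2.37 (SE 0.14) and 2.35 (SE 0.14). Ifi44, Ifi35 and Tor3a, a torsin ATPase of the endoplasmic reticulum, differed by 1.47 (SE 0.22), 1.41 (SE 0.18) and 1.04 (SE 0.21).

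**Figure D2:**
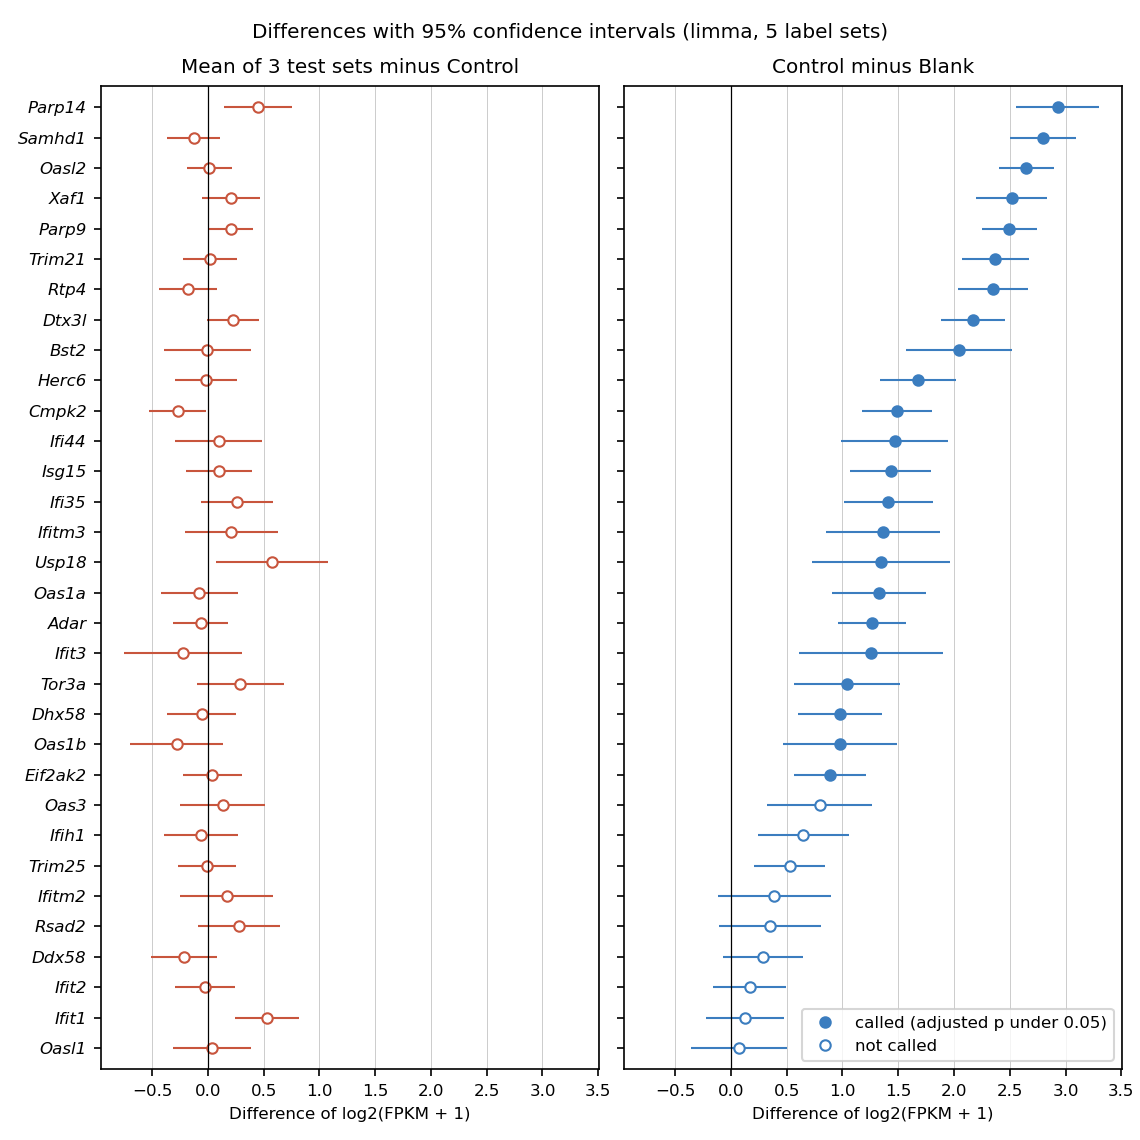
Differences of log2(FPKM + 1) with 95% confidence intervals from limma for the mean of the 3 test sets minus Control (left) and Control minus Blank (right), with called members filled. On the right 23 of 32 are called and all 32 lie above 0, while on the left none is called and the values run from -0.28 to 0.57.

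Between 17 and 24 members were called between Control and Blank when 1 library was left out. The lowest count was without Control-1, and the calls of Usp18, Ifit3, Oas1b, Dhx58, Tor3a, Ifitm3 and Eif2ak2 were each lost without at least 1 library. Of 4 epithelial markers tested, Krt8 and Krt18 were also called higher in Control than in Blank (adjusted p = 0.0019 for Krt18 and 0.0059 for Krt8). Cdh1 averaged 11.8 FPKM in Control and 12.1 in Blank, and Epcam 5.2 and 3.9, and neither was called.

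Averaged over the 3 test sets and set against Control alone, no member was called. For the mean of the 3 test sets minus Control, 0 of 32 members were called higher, against 2.00% of all genes tested, and 0 lower, against 1.61%. An unadjusted p under 0.05 in limma was found in 5 of 32 members (Ifit1, Usp18, Parp9, Parp14 and Cmpk2). That is no larger a share than the 1836 of the 11169 genes tested. The median difference was 0.03 over the members and -0.03 over all genes. Usp18 had the highest value, 0.57 (95% interval 0.07 to 1.08, adjusted p = 0.24), followed by Ifit1 with 0.53 (95% interval 0.24 to 0.81, adjusted p = 0.053) and Parp14 with 0.45 (95% interval 0.14 to 0.75, adjusted p = 0.12). Oas1b, Cmpk2 and Ifit3 had the lowest, at -0.28 (95% interval -0.70 to 0.14), -0.27 (95% interval -0.52 to -0.01) and -0.23 (95% interval -0.75 to 0.30). Usp18 was called without Test1-1 (adjusted p = 0.026) and Parp14 without Test2-1 (adjusted p = 0.037).

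With all 6 test libraries set against all 4 control libraries, the comparison of the study, 1 member was called higher (3.12%, against 2.95% of all genes tested) and 0 lower (against 4.92%). An unadjusted p under 0.05 in limma was found in 19 members and in 2822 of the 11169 genes tested. Usp18 averaged 8.21 ± 2.28 FPKM in test (SD, n = 6) and 3.19 ± 2.13 FPKM in control (SD, n = 4). Its difference was 1.25 (SE 0.31, adjusted p = 0.034), with a two-sided p of 0.014 when the 210 ways to split the libraries were permuted exactly, the smallest p this allows being 0.0048. This permutation takes the 10 libraries as exchangeable, although they come in 5 sets of 2. It did not set Usp18 apart, since the permutation p was 0.0095 for Parp9 and 0.014 for Dtx3l and Ifi35, none of them called in limma. In limma the call of Usp18 was lost when sets entered as random effects (adjusted p = 0.079), with the set as the unit (adjusted p = 0.30) and with the replicate block (adjusted p = 0.051). Not every test library was above every control library, since Test1-1 with 4.41 FPKM lay below both Control libraries, and no member had that separation (0 of 32, against 3.21% of all genes tested). Parp14 averaged 74.1 ± 25.1 FPKM in test (SD, n = 6) and 28.6 ± 26.2 FPKM in control (SD, n = 4), and its difference of 1.91 (SE 0.59) had an adjusted p of 0.070. Xaf1 and Parp9 followed at 1.46 (SE 0.50) and 1.45 (SE 0.48), neither called, and Ddx58, at -0.07 (SE 0.15), was the only member below 0. The median of 0.70 over the members, against -0.03 over all genes, joins control libraries that differ as described above. Without Control-1 there were 14 members called and without Control-2 there were 9, and the call of Usp18 was also lost without Blank-1, Blank-2, Test1-2, Test2-1, Test2-2, Test3-1 or Test3-2 (adjusted p of at most 0.13 among these).

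Test3 differed from the other test sets in 8 members. Against the mean of Test1 and Test2, 6 members (18.8%) were called higher in Test3, against 3.35% of all genes tested, and 2 (6.25%) lower, against 3.13%. The median difference was 0.23 over the members and -0.01 over all genes. In limma, 17 members had an unadjusted p under 0.05, against 2532 of the 11169 genes tested. All 3 Ifit genes were among those called higher. Ifit1 was 3.06-fold higher in mean FPKM in Test3 than in Test1 and Test2 and differed by 1.47 (SE 0.14, adjusted p = 0.00025), and neither of its Test3 libraries overlapped any other library of the series. Ifit3 differed by 1.37 (SE 0.25, adjusted p = 0.012) and Ifit2 by 0.53 (SE 0.13, adjusted p = 0.038). Rsad2, Parp14 and Xaf1 differed by 0.91 (SE 0.18, adjusted p = 0.016), 0.79 (SE 0.15, adjusted p = 0.013) and 0.54 (SE 0.12, adjusted p = 0.033), each with both Test3 libraries above the 8 others. Oas1a and Samhd1 were lower in Test3, by -0.66 (SE 0.16, adjusted p = 0.042) and -0.46 (SE 0.11, adjusted p = 0.043). Their Test3 libraries lay below the other test libraries and Control and above Blank. Ifitm2 and Ifitm3 lay between them in size, at -0.49 (95% interval -0.93 to -0.05) and -0.46 (95% interval -0.90 to -0.02), and were not called.

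**Figure D3:**
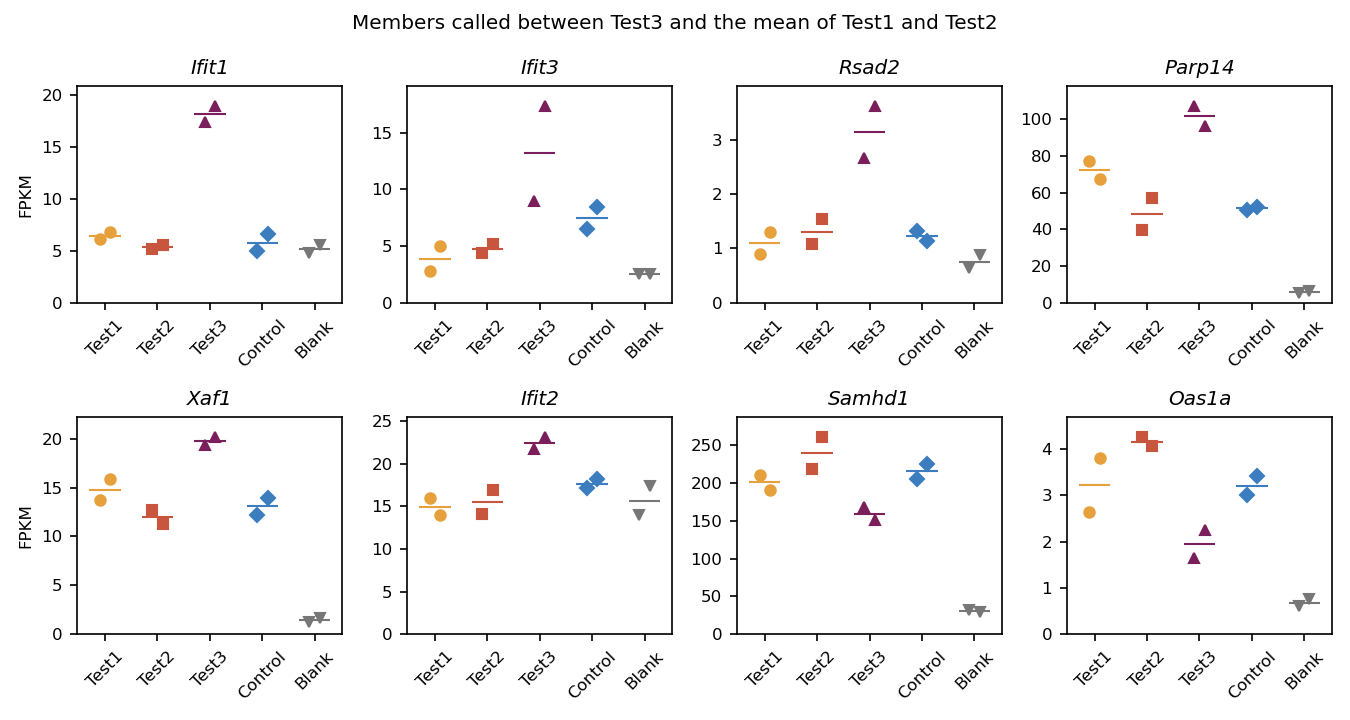
FPKM of the 8 members called between Test3 and the mean of Test1 and Test2, with 1 point per library, a line at each set's mean and axes from 0. Ifit1 is at 17.4 and 19.0 FPKM in Test3 and at most 6.85 FPKM elsewhere, while Samhd1 and Oas1a lie lower in Test3 than in Test1, Test2 and Control.

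Leaving out single libraries left 3 to 7 of these 8 calls. The counts were 3 without Test2-1, Test3-1 or Test3-2, 4 without Test1-2, Blank-1 or Blank-2 and 5 without Test2-2. Ifit1 kept its call in each of these fits, whereas Ifit3 and Rsad2 lost theirs without Test2-1 or Test3-2 (adjusted p of 0.052 to 0.076), Parp14 without Test3-1 (adjusted p = 0.15), and Ifit2, Xaf1, Oas1a and Samhd1 without any of 6 or more libraries. Krt8 and Krt18 were lower in Test3, with means of 418 and 848 FPKM, against 835 and 1403 FPKM in Test1 and 920 and 1699 FPKM in Test2. They were the 2 called lower of 4 epithelial markers tested. Cdh1 averaged 10.85 FPKM in Test3, 13.06 in Test1 and 9.12 in Test2, and Epcam 6.1, 5.9 and 6.6. Cd3d, the T cell marker tested, differed by 1.34 in the same comparison (SE 0.42, adjusted p = 0.094) and the macrophage marker Cd68 by -0.54 (SE 0.19, adjusted p = 0.14), neither called. The part of these markers in the result was not tested.

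Set by set against Control, 4 members (12.5%) were called higher in Test3, against 4.23% of all genes tested, and 0 lower, against 4.83%. In Test1 0 members were called, against 1.44% of genes higher and 0.976% lower, and in Test2 0 were called, against 0.492% higher and 0.0806% lower. In each of Test1 and Test2, 3 members had an unadjusted p under 0.05 in limma, against 1571 of the 11169 genes tested in Test1 and 1162 in Test2. In Test3, 14 members did, against 2785 of the 11169 genes. The members ran from -0.82 to 0.49 in Test1, from -0.54 to 0.58 in Test2 and from -0.52 to 1.51 in Test3. Those called in Test3 were Ifit1 with 1.51 (95% interval 1.16 to 1.86, adjusted p = 0.00029), Parp14 with 0.97 (95% interval 0.60 to 1.35, adjusted p = 0.0066), Rsad2 with 0.89 (95% interval 0.43 to 1.34, adjusted p = 0.026) and Xaf1 with 0.56 (95% interval 0.24 to 0.88, adjusted p = 0.037). The count was 2 without Control-1, Control-2, Test3-1 or Test3-2. Xaf1 lost its call without any of these 4 or either Blank library, Rsad2 without Control-1, Control-2 or Test3-2, and Parp14 without Test3-1 (adjusted p of 0.058 to 0.20). Ifit3 took opposite signs, at -0.82 (95% interval -1.47 to -0.17) in Test1, -0.54 (95% interval -1.19 to 0.10) in Test2 and 0.69 (95% interval 0.04 to 1.33) in Test3. These comparisons share the Control libraries.

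**Figure D4:**
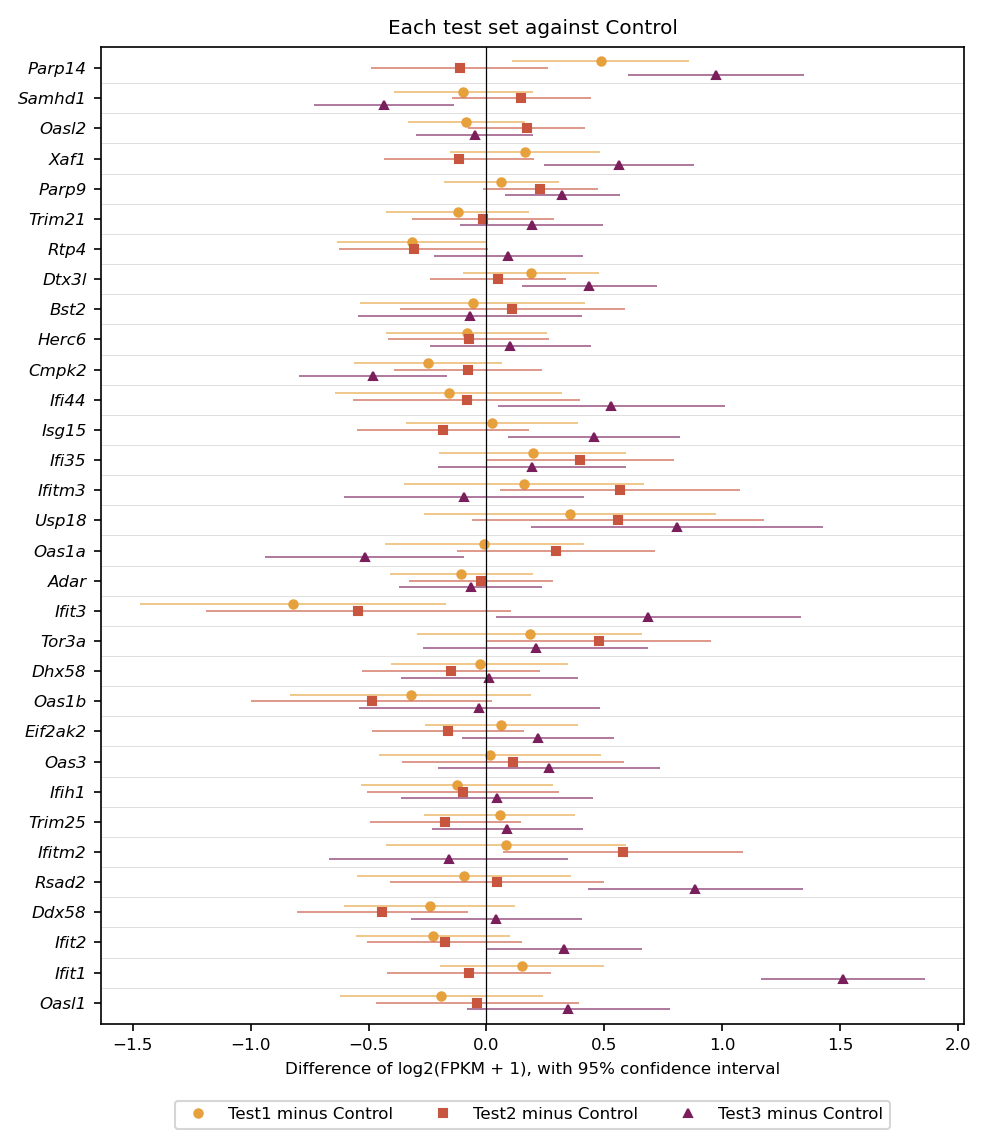
Difference of each test set from Control in log2(FPKM + 1), with 95% confidence intervals from limma, for the 32 members. Ifit1 in Test3 (1.51) lies furthest from 0, and Ifit3 lies below 0 in Test1 and Test2 and above 0 in Test3.

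Test1 and Test2 did not differ detectably in these genes. In Test1 minus Test2, 0 members were called higher (against 0.116% of all genes tested) and 0 lower (against 0.0448%). An unadjusted p under 0.05 in limma was found in 2 members (Parp14 and Oasl2), against 1269 of the 11169 genes tested. The medians were -0.09 over the members and -0.05 over all genes. Parp14 had the highest value, 0.60 (95% interval 0.22 to 0.97, adjusted p = 0.28), followed by Xaf1 with 0.28 (95% interval -0.04 to 0.60) and Trim25 with 0.23 (95% interval -0.09 to 0.55). Ifitm2, Ifitm3 and Oas1a had the lowest, at -0.49 (SE 0.23), -0.41 (SE 0.23) and -0.30 (SE 0.19).

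Not all classical members were measurable. Mx1, which encodes a GTPase that traps viral ribonucleoproteins, was below the rule with 0.17 and 0.21 FPKM in Test1, 0.08 and 0.15 in Test2 and 0.73 and 0.29 in Test3, against 0.05 and 0.53 in Control and 0.37 and 0.19 in Blank. Whether Mx1, Mx2 or Oas1b makes a working protein in this cell line was not examined. Oas2 had 0.13 and 0.05 FPKM in Test1, 0 and 0.08 in Test2 and 0 and 0.04 in Test3, against 0.02 and 0.08 in Control and 0.04 and 0 in Blank. Mx2, Oas1g and Ifitm1 were at most 0.81, 0.91 and 0.51 FPKM in any library, with Oas1g listed at 0 in both Blank libraries and in Control-2 and at 0.09 FPKM in Test3-1. Ifi27 and Rnf213 had no row by symbol and were not analysed here. The gene number that RefSeq gives to Ifi27 stands in the table under the symbol Ifi27l1, averaging 19.2, 28.2 and 21.6 FPKM in Test1, Test2 and Test3, against 19.3 in Control and 13.3 in Blank.

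Other genes of the pathway were taken from lists drawn up, like the members, with earlier results known. Of 25 interferon signaling genes tested, 16 were called higher in Control than in Blank and 0 lower (median difference 0.94), beside 4.55% and 1.39% of all genes tested. Of 34 other antiviral interferon-stimulated genes, 24 were called higher in Control than in Blank and 0 lower (median 1.15). None was called for the mean of test sets minus Control, where 2 had an unadjusted p under 0.05 in limma, against 1836 of the 11169 genes tested.

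Of 28 IFN-γ response genes with a row, 23 passed the filter. All 23 were called higher in Control than in Blank (median 4.17), beside 4.55% of all genes tested. Ciita (0.04 and 0.06 FPKM in Blank) and Cd274 (0.62 and 0.88) passed only through libraries outside Blank, so the filter fixes part of this count. In the mean of test sets 5 of the 23 were called higher than in Control and 1 lower, beside 2.00% and 1.61% of all genes. Irf1, shared by this and the signaling list and the transcription factor that IFN-γ induces directly, had 263 and 271 FPKM in Test1, 240 and 234 in Test2 and 313 and 319 in Test3, against 228 and 230 in Control and 22.4 and 22.4 in Blank. Cxcl10, a chemokine of T cell recruitment, had 1448 and 1667 FPKM in Test1, 1332 and 1286 in Test2 and 3218 and 3831 in Test3, against 664 and 721 in Control and 38.0 and 43.1 in Blank. Cxcl10 was called higher in the mean of test sets than in Control (1.47, SE 0.12, adjusted p = 0.00010) and in Test3 than in Test1 and Test2 (1.30, SE 0.13, adjusted p = 0.00037). In the comparison of Test3 with Test1 and Test2, 2 signaling genes, 1 other antiviral gene and 6 IFN-γ response genes were called higher and 1, 2 and 1 lower, beside 3.35% and 3.13% of all genes. With all test against all control libraries, 2 of the 25, 1 of the 34 and 4 of the 23 were called higher and none lower, beside 2.95% and 4.92% of all genes. In the same order of lists, 15, 19 and 22 had an unadjusted p under 0.05 in limma, against 2822 of the 11169 genes tested.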

How the data were processed

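RNA of PyMt cells in 10 libraries was sequenced at BGI. According to the study's methods and the submitters' processing notes, the aligner was Bowtie and the genome build mm10. The authors deposited 1 table of FPKM for 17171 genes. Read totals, strand use and the program behind FPKM are not stated in any source used here.

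Values were transformed to log2(FPKM + 1), a pseudocount of 1, and the 11169 genes reaching 1 FPKM in 4 or more libraries were tested two-sided with limma 3.58.1 under R 4.3.3 (trended eBayes). P-values were adjusted by Benjamini-Hochberg over all genes tested, at a threshold of 0.05. The comparison of 6 test with 4 control libraries had its own fit, and all others were contrasts in 1 fit of the 5 label sets. The procedure was tested on simulated data, with independent noise in each library and no difference between sets other than changes added on purpose. In its comparison of 6 test with 4 control libraries, Control and Blank did not differ, unlike in these data. The simulation therefore does not show how that fit handles such a difference. Coordinates and promoters came from RefSeq (GRCm38.p6), matched by gene number. Tables and figures were made in Python 3.11.15 (pandas 2.3.3, matplotlib 3.10.9). No column was left out. No 2 libraries shared more than 67 equal values among the genes tested.

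The members and lists were chosen with earlier results of these data known, and the calls of each test set against Control were added after seeing the data. All members are named, with values in each library for a fixed set and for the 3 highest and 3 lowest differences of each comparison other than those of single test sets against Control. Alternatives covered the pseudocount, filter, scaling, trend, unit of replication, replicate block, control libraries and each library or test set left out. 1 gene of the signaling list, and that list's calls between the test sets and Control, are not reported here. The list's count between Control and Blank covers all its tested genes.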

Additional observations from a re-analysis of the deposited data

Results flagged for a closer look

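Among 64 groups examined (the 6 test and the 4 control libraries of each of the 32 members), 2 held a library far from the others by Dixon's criterion. Chance gives this in about 1 of 20 groups drawn from a single population. Each group here joins libraries of different label sets, so that rate does not apply. A split between sets can also keep a library from reaching the critical value. Oas3 was at 3.18 FPKM in Test3-1, above the other test libraries by 0.706 of the group's range, where 0.625 is the critical value. Ifitm2 was at 301.63 FPKM in Control-1, above the other control libraries by 0.838 of the range, where 0.829 is the critical value.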

How the results depend on the processing

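No called value changed direction in any alternative run, and of 4768 values of single members 4459 kept their side of the threshold and their sign, 108 lost and 35 gained a call, and 166 uncalled values changed sign. For all test against all control libraries the 1 call became 0 with no filter, with the replicate block, with label sets as a random effect or as the unit, with the Control libraries alone as control, and without set Test1, Test2 or Test3, and ran from 0 to 14 with 1 library left out. For the mean of test sets minus Control the 0 calls became 1 (Ifit1, adjusted p = 0.043 from limma) with scaling by median ratio and ran from 0 to 1 with 1 library left out. For Test3 against Test1 and Test2 the 8 calls became 5 with no filter, 5 with the replicate block and 4 in a fit of the compared libraries alone, and ran from 3 to 7 with 1 library left out. With scaling to a common sum there were 6. Under that scaling, no filter, the replicate block and the fit of the compared libraries alone, the calls of Oas1a and Samhd1 were lost. For Control minus Blank the 23 calls ran from 17 to 24 over all alternatives, and for Test1 minus Test2, Test1 minus Control and Test2 minus Control the count was 0 in each. For Test3 minus Control, whose alternatives were chosen after seeing the data, the 4 calls became 2 with a pseudocount of 0.1 and 2 in a fit of the compared libraries alone, and ran from 2 to 5 with 1 library left out. Library numbers did not pair the libraries: over 10 pairs of sets the correlation of their deviations ran from -0.52 to 0.26 and was over 0.1 in 1, and with the replicate block Control minus Blank had 22 calls. FPKM holds no read total, so counting error near 1 FPKM could not be given.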
